A study of Mus musculus with 16 samples.

Results

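The 2'-5'-oligoadenylate synthetase (OAS) family was followed through a first and a repeated interferon-gamma treatment of mouse macrophages. The members are Oas1a, Oas1b, Oas1c, Oas1g, Oas2, Oas3, Oasl1 and Oasl2, and they were taken as every array feature whose platform annotation names one of these genes. The 8 genes stood on 8 array features of the 23410 features that carry a gene symbol, which cover 21335 distinct genes. Of the 8 features, 7 name 1 member each, and 1 names both Oas1a and Oas1g. Those 2 genes are near-identical copies, so this shared feature, written Oas1a/Oas1g here, cannot be assigned to either, and Oas1g has no feature of its own.

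RNA was measured on 16 1-colour Affymetrix arrays, each hybridised with RNA of bone-marrow derived macrophages of the genotype H3.3-HA knock-in, a mouse line with a tagged histone variant that all 6 groups share. The cells were grown in medium conditioned by L cells, a fibroblast line that secretes the macrophage growth factor Csf1, and then received interferon-gamma. Cells labelled Naïve were collected at 0 h (4 arrays), 3 h (2 arrays) and 6 h (2 arrays), and cells labelled Pretreated at 0 h (4 arrays), 3 h (2 arrays) and 6 h (2 arrays); the titles give the pretreatment as PREIFN, and the sources used here name no dose, length or washout for it. By the numbering in the titles the arrays form 2 sets of 8: set 1 holds the 6 h arrays and set 2 the 3 h arrays, each with 2 naive and 2 pretreated arrays at 0 h, so 3 h and 6 h cells were each compared with 0 h cells of their own set. No group of untreated cells at 3 h or 6 h exists, so time in culture and interferon-gamma cannot be told apart in a comparison with 0 h. The labels do not say that arrays of a group came from separate cultures or mice, and p-values then measure the spread between these arrays, which may be technical.

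OAS proteins are sensors of double-stranded RNA, a sign of viral infection. A synthetase that binds it joins ATP into short chains linked from the 2' to the 5' position, and these chains act as a second messenger that leads to the decay of viral and host RNA and to a stop of translation. The genes are classic interferon-stimulated genes. Type I interferon acts on them through a complex that holds Stat2 and Irf9, at interferon-stimulated response elements (ISREs). Interferon-gamma acts mainly at gamma-activated sites (GAS), and it raises Irf1, which can bind ISRE-like sequences as well.

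The sequence before the start of these genes is where an interferon signal would be read, so the stretches holding matches to such motifs are given first. RefSeq windows from 250 bases before to 50 bases after the start were found for 6 of the 8 members, namely Oas1a, Oas1c, Oas1g, Oas3, Oasl1 and Oasl2, all on chromosome 5 of build GRCm38.p6. Each of the following lines holds 60 bases before the start, 5′ to 3′, with matches to GAAANNGAA (the core bound by IRF factors) or AAANNGAAA (the 3′ part of an ISRE), on either strand, in capitals. Oas1a is at chr5:120907526-120907585 and Oas1g at chr5:120887614-120887673, both printed on the minus strand, which is the strand of the genes.
Oas1a: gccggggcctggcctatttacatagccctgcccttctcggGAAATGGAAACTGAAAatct
Oas1g: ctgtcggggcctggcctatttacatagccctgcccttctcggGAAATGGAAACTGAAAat
Oas1c: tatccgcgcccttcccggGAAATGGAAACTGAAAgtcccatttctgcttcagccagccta
Oas3: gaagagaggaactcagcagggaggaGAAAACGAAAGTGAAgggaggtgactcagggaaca
Oasl1: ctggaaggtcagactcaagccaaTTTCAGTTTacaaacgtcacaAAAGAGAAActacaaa
The Oas1c line is chr5:120812595-120812654 on the plus strand, opposite to the gene, and the Oas3 line is chr5:120777700-120777759 on the minus strand, that of the gene. The Oasl1 line is chr5:114923040-114923099 on the plus strand, that of the gene.

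The lines of Oas1a and Oas1g share a run of 56 identical bases, all before the start and outside the transcript. The same 16 letters in capitals stand in Oas1a, Oas1g and Oas1c. In Oas1a they run from base -20 to base -5 before the start on the strand of the gene, whereas in Oas1c they run from base -114 to base -99 on the opposite strand. The annotated interval of the next gene, Oas1b, begins 7 bases beyond the outermost of these bases, while the start of Oas1a lies 5 bases past its last one. The table gives no window for Oas1b. GAAANNGAA had a match in 4 of the 6 member windows and in 8.56% of 32851 RefSeq windows of the same length, and AAANNGAAA in 5 of 6 and in 10.6% of those windows. The 2 motifs overlap each other in most of these matches and are not independent. The GAS pattern TTCNNNGAA matched only the Oas1a window among the 6, from base -98 to base -90, against 8.3% of all windows, and the Oasl2 window held none of the 3 motifs. The motifs were chosen with these sequences in view, a match is a description and not a bound site, and an absent match says only that these letters are not in the window.

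**Figure D1:**
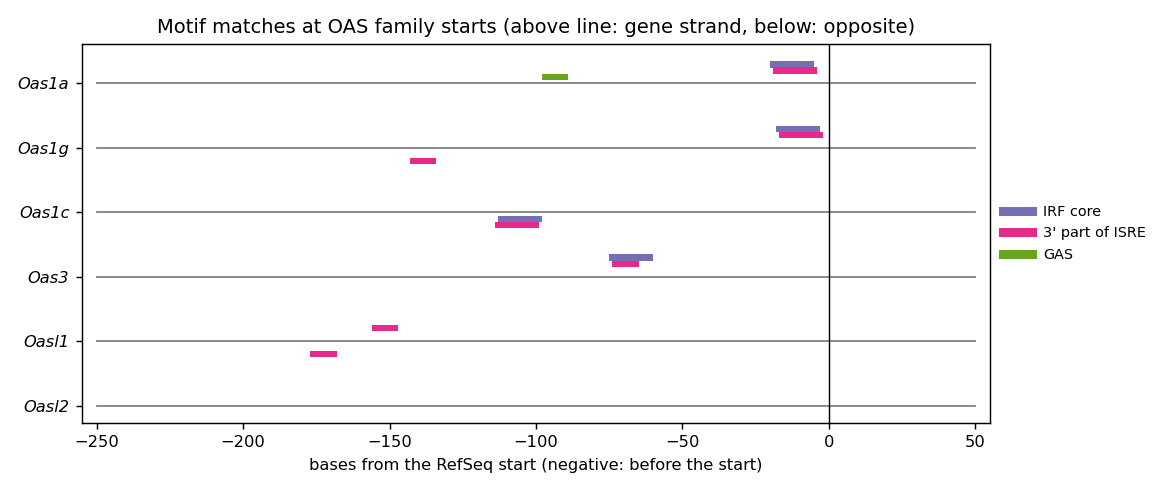
Matches to 3 motifs in the RefSeq windows of 6 OAS family genes, by distance in bases from the gene's start (horizontal axis), drawn above the line for the strand of the gene and below it for the opposite strand. Oas1a and Oas1g hold the shared 16 bases within 20 bases of the start and 1 other match each farther away (GAS from -98 in Oas1a, the ISRE part from -143 in Oas1g), Oas1c holds the same 16 letters on the opposite strand between -114 and -99, and Oasl2 holds no match.

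Most of the family was higher 3 h after a first exposure to interferon-gamma. In naive cells 6 of the 8 features were higher at 3 h than at 0 h at an adjusted p under 0.05 (limma's moderated test, adjusted over all 23410 features): Oas1a, Oas1a/Oas1g, Oas1b, Oas2, Oas3 and Oasl2. The share of all features called higher in this comparison was 3.44%. The median log2 difference was 1.04 over the 8 members and -0.0045 over all features. Values are log2 intensities, and they compare 1 feature between arrays, never 1 gene with another, since probes differ in brightness.

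Oas1a and Oas1g encode active synthetases of the short OAS1 type. The Oas1a feature read 9.69 and 10.22 in naive cells at 0 h and 10.85 and 11.09 at 3 h, all in set 2. Both 3 h arrays lay above both 0 h arrays, as in 22.9% of all features. The difference was 1.01 ± 0.21 (log2, SE), or 2.02-fold (adjusted p = 0.0124). The Oas1a/Oas1g feature went from 10.30 and 10.65 to 11.18 and 11.59, again without overlap, a 1.89-fold difference (0.92 ± 0.19, adjusted p = 0.0146). These calls were lost when naive 0 h replicate 3 or naive 3 h replicate 2 was left out, with an adjusted p of 0.133 and 0.126 for Oas1a and of 0.141 and 0.171 for Oas1a/Oas1g.

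Oas1b, the gene linked to flavivirus resistance of wild-derived mice and truncated in most laboratory strains, is listed in the RefSeq table as a transcribed pseudogene. It showed the largest log2 difference of the 8 features at 3 h. Its feature read 8.65 and 8.69 at 0 h and 9.89 and 10.41 at 3 h, a difference of 1.48 ± 0.16, or 2.78-fold (adjusted p = 9.19e-05). The call held with each of the 4 arrays left out in turn. Oas1c, another copy in the same cluster, read 7.85 and 7.83 at 0 h and 8.05 and 8.36 at 3 h; this difference of 0.37 ± 0.13 did not pass the test (adjusted p = 0.161).

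Oas2 and Oas3 encode the larger synthetases, built from repeated OAS units, of which OAS3 binds long double-stranded RNA. The Oas2 feature read 10.94 and 11.16 at 0 h and 11.83 and 12.17 at 3 h, a 1.93-fold difference (0.95 ± 0.18, adjusted p = 0.00789). That call too was lost without naive 0 h replicate 3 (adjusted p = 0.0773) or naive 3 h replicate 2 (adjusted p = 0.105). For Oas3 the 0 h arrays read 10.29 and 10.60 and the 3 h arrays 11.61 and 11.95, a 2.52-fold difference (1.33 ± 0.18, adjusted p = 0.000583). It held with each array left out.

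Oasl1 and Oasl2 carry ubiquitin-like domains behind an OAS domain; Oasl2 has synthetase activity, and Oasl1 is known as a brake on translation of Irf7. Oasl2 read 11.94 and 12.14 at 0 h and 13.07 and 13.15 at 3 h, a 2.09-fold difference (1.07 ± 0.11, adjusted p = 4.96e-05) that held with each array left out. Oasl1 was the most uneven member: its 0 h arrays read 8.0 and 8.99 and its 3 h arrays 9.17 and 10.53. Both 3 h arrays were higher, as in 22.9% of all features, but the difference of 1.36 ± 0.41 missed the threshold (adjusted p = 0.0855). Without naive 0 h replicate 4 it was called (adjusted p = 0.0483), and without naive 3 h replicate 1 as well (adjusted p = 0.0115).

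In naive cells at 6 h, compared with 0 h arrays of set 1, 6 features were higher (Oas1a, Oas1a/Oas1g, Oas1b, Oas3, Oasl1 and Oasl2) and 1, Oas1c, was lower. Of all features 7.4% were called higher and 9.91% lower, so a fall was the more common call in that comparison. The median log2 difference was 0.85 over the members and -0.018 over all features.

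Oas3 read 10.70 and 10.72 in naive cells at 0 h and 12.07 and 12.33 at 6 h, a 2.81-fold difference (1.49 ± 0.18, adjusted p = 0.000115). Oasl1 went from 8.08 and 8.48 to 10.37 and 9.66, a 3.33-fold difference (1.74 ± 0.41, adjusted p = 0.0099). This was the largest log2 difference of the 8 at 6 h and also the one with the widest spread, and the call was lost without naive 0 h replicate 1 (adjusted p = 0.0772) or naive 6 h replicate 1 (adjusted p = 0.109). Oasl2 read 12.48 and 12.53 at 0 h and 13.28 and 13.31 at 6 h, a 1.73-fold difference (0.79 ± 0.11, adjusted p = 0.00026).

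Oas1b went from 8.72 and 8.62 to 9.74 and 9.56, a 1.97-fold difference (0.98 ± 0.16, adjusted p = 0.001). Oas1a rose 1.87-fold, from 10.27 and 10.20 to 11.25 and 11.03 (adjusted p = 0.00941). Oas1a/Oas1g rose 1.71-fold, from 10.73 and 10.68 to 11.61 and 11.34 (adjusted p = 0.0151). In all 3 features the 6 h arrays lay above the 0 h arrays, as in 24.9% of all features. The Oas1a call was lost without naive 0 h replicate 2 (adjusted p = 0.0641) or naive 6 h replicate 1 (adjusted p = 0.0856), and the Oas1a/Oas1g call with any 1 of 3 arrays left out (adjusted p of 0.0615 and 0.0874 when it was a naive 0 h array of set 1, and of 0.139 when it was naive 6 h replicate 1).

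Oas2 read 11.06 and 11.33 at 0 h and 11.62 and 11.62 at 6 h, a difference of 0.43 ± 0.18 that was not called (adjusted p = 0.156). Oas1c fell from 8.13 and 8.24 to 7.72 and 7.61, a log2 difference of -0.51 ± 0.13 (adjusted p = 0.0148). It was the only member lower than at 0 h in naive cells. With the arrays centred on their medians the adjusted p was 0.0513, and with no array-set term it was 0.199. When naive 0 h replicate 2 or naive 6 h replicate 2 was left out it was 0.111 or 0.0947.

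**Figure D2:**
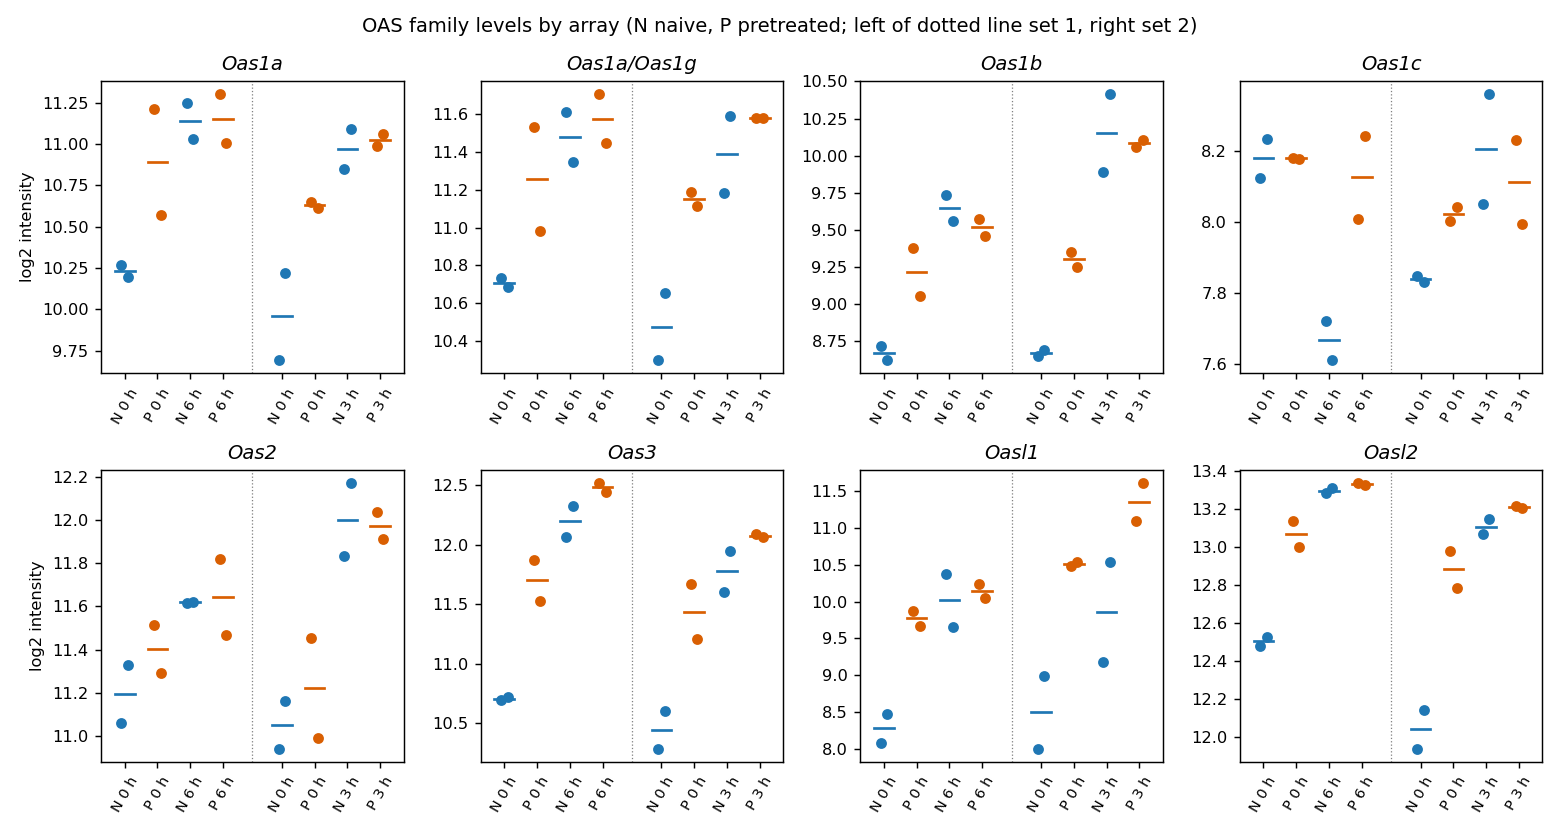
Log2 intensity (vertical axis, a scale of its own for each feature) of the 8 OAS family features on each array, with naive (N) and pretreated (P) cells by time on the horizontal axis, set 1 left and set 2 right of the dotted line; points are arrays and bars are means of 2. In every panel but that of Oas1c the naive 0 h arrays of a set have the lowest mean, and Oas1c has its lowest mean in naive cells at 6 h.

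Pretreated cells entered the second treatment with part of the family already raised. At 0 h, with 4 pretreated arrays against 4 naive arrays and each set compared within itself, Oas1b, Oas3, Oasl1 and Oasl2 were higher in pretreated cells. The share of all features called higher here was 0.97%, and the median log2 difference was 0.64 over the members and 0.014 over all features. The other 4 features were not called, although all 8 differences were above 0.

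For Oasl1 the pretreated arrays at 0 h read 9.87 and 9.67 in set 1 and 10.49 and 10.54 in set 2, and the naive arrays 8.08, 8.48, 8.0 and 8.99. The difference was 1.75 ± 0.29, or 3.37-fold (adjusted p = 0.00697). Within set 1 it was 1.49 and within set 2 it was 2.02. Oas3 read 11.88 and 11.53 (set 1) and 11.67 and 11.21 (set 2) in pretreated cells and 10.70, 10.72, 10.29 and 10.60 in naive cells, a 1.99-fold difference (0.99 ± 0.13, adjusted p = 0.00115). The Oas3 difference was 0.994 in set 1 and 0.995 in set 2.

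Oasl2 read 13.14, 13.00, 12.98 and 12.78 in pretreated cells and 12.48, 12.53, 11.94 and 12.14 in naive cells, a 1.63-fold difference (0.70 ± 0.08, adjusted p = 0.000247). It was 0.56 in set 1 and 0.84 in set 2. Oas1b read 9.38, 9.05, 9.35 and 9.25 against 8.72, 8.62, 8.65 and 8.69, a 1.5-fold difference (0.59 ± 0.11, adjusted p = 0.0236). The Oas1b call was lost with any of 7 of the 8 arrays left out, at an adjusted p of up to 0.117. The calls of Oas3, Oasl1 and Oasl2 held with each array left out.

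Oas1a and Oas1a/Oas1g lay close to the threshold at 0 h. Oas1a read 11.21 and 10.57 (set 1) and 10.65 and 10.61 (set 2) in pretreated cells and 10.27, 10.20, 9.69 and 10.22 in naive cells, a difference of 0.67 ± 0.15 (adjusted p = 0.0598). Oas1a/Oas1g read 11.53, 10.98, 11.19 and 11.11 against 10.73, 10.68, 10.30 and 10.65, a difference of 0.61 ± 0.14 (adjusted p = 0.061). Within each set both features had the pretreated arrays above the naive arrays, but the share of all features so placed was not counted. Both were called without pretreated 0 h replicate 2, with an adjusted p of 0.0127 for Oas1a and 0.0181 for Oas1a/Oas1g. Without naive 0 h replicate 4 both were called as well (adjusted p of 0.0232 and 0.0498).

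Oas2 and Oas1c differed little between naive and pretreated cells before the second treatment. The Oas2 difference was 0.19 ± 0.13 (95% confidence interval -0.09 to 0.47, adjusted p = 0.839), and that of Oas1c 0.09 ± 0.09 (-0.11 to 0.29, adjusted p = 0.907). For both, arrays of the 2 groups overlapped within a set. Oas2 was called at 3 h but not at 6 h in naive cells, where its 6 h difference had an unadjusted p of 0.0384 by limma. Its 6 h and 3 h responses were not called different (adjusted p = 0.436). These missed calls do not show that its rise was brief.

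**Figure D3:**
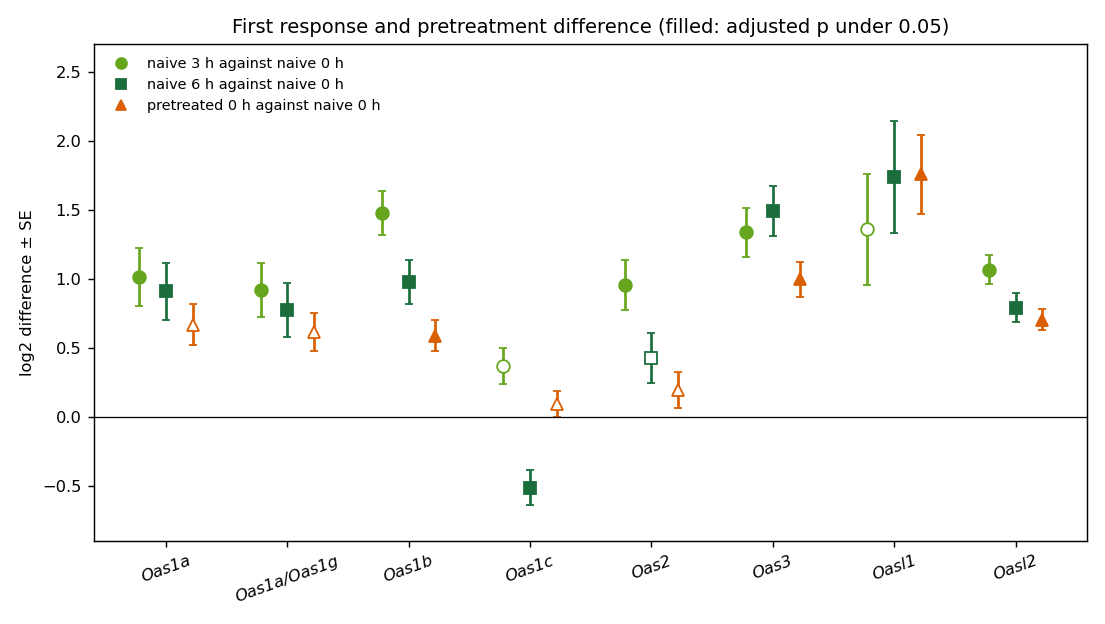
Log2 difference ± SE (vertical axis) of each OAS family feature for naive cells at 3 h and 6 h against naive 0 h and for pretreated against naive cells at 0 h, with filled symbols at an adjusted p under 0.05. Oasl1 and Oas3 have the 2 largest pretreatment differences at 0 h (1.75 and 0.99), and Oas1c at 6 h is the only difference below 0.

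When pretreated cells were treated again, only 1 member was called at each time. At 3 h against pretreated cells at 0 h it was Oas1b, which read 9.35 and 9.25 at 0 h and 10.06 and 10.11 at 3 h in set 2, a 1.72-fold difference (0.78 ± 0.16, adjusted p = 0.0209). Of all features 1.82% were called higher in this comparison, and the median log2 difference was 0.53 over the members and -0.0035 over all features. The Oas1b call was lost with any 1 of the 4 arrays left out, at an adjusted p between 0.0653 and 0.158, while its log2 difference stayed between 0.73 and 0.89 over all alternatives.

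Several other members lay above their 0 h arrays without passing the test. Oas2 read 11.45 and 10.99 at 0 h and 12.04 and 11.91 at 3 h, a difference of 0.75 ± 0.18 (adjusted p = 0.0513). Without pretreated 0 h replicate 3 Oas2 was called (adjusted p = 0.0329). Oas3 read 11.67 and 11.21 at 0 h and 12.09 and 12.06 at 3 h, a difference of 0.64 ± 0.18 (adjusted p = 0.0967). The differences of Oas1a (0.40 ± 0.21), Oas1a/Oas1g (0.43 ± 0.19), Oasl1 (0.84 ± 0.41) and Oasl2 (0.33 ± 0.11) had adjusted p-values of 0.476, 0.375, 0.422 and 0.17. In each of these 6 features both 3 h arrays were above both 0 h arrays, as in 14.5% of all features, whereas those of Oas1c overlapped.

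At 6 h against pretreated 0 h cells, the 1 member called was Oas3. It read 11.88 and 11.53 at 0 h and 12.52 and 12.45 at 6 h in set 1, a 1.72-fold difference (0.78 ± 0.18, adjusted p = 0.0241), and 2.86% of all features were called higher. Without pretreated 0 h replicate 2 the adjusted p of Oas3 was 0.18, without pretreated 6 h replicate 1 it was 0.164, and without pretreated 6 h replicate 2 it was 0.115. The other 7 features had log2 differences from -0.05 (Oas1c) to 0.37 (Oasl1), none called. The median was 0.28 over the members and -0.029 over all features.

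After treatment the levels of naive and pretreated cells were close for most members. Neither at 3 h nor at 6 h was any of the 8 features called between pretreated and naive cells by limma, and at an unadjusted p under 0.05 there was 1 at 3 h (Oasl1) and 1 at 6 h (Oas1c). Of all features 0.0128% were called at 3 h and 0.662% at 6 h, in either direction. A missed threshold does not show that levels were alike, so the intervals are given.

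At 3 h the pretreated-minus-naive difference was 0.05 for Oas1a (95% confidence interval -0.40 to 0.51), -0.07 for Oas1b (-0.41 to 0.28), -0.03 for Oas2 (-0.43 to 0.37) and 0.10 for Oasl2 (-0.13 to 0.34). Oas3 differed by 0.30 (-0.09 to 0.69). Each of these intervals stays below a doubling. Oasl1 was the exception in size: its pretreated arrays at 3 h read 11.09 and 11.61 and its naive arrays 9.17 and 10.53, a difference of 1.5 ± 0.41 with an interval of 0.61 to 2.38 and an adjusted p of 0.714. Without naive 3 h replicate 1 the Oasl1 difference was 0.82, and without naive 3 h replicate 2 it was 2.17. The groups did not overlap for Oasl1. Both pretreated arrays were higher in 13.0% of all features, and only 3 features of 23410 passed in that comparison.

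At 6 h the differences of 7 features lay between -0.13 (Oas1b) and 0.29 (Oas3), and for Oasl1 the interval was -0.76 to 1.01. Oasl2 read 13.34 and 13.33 in pretreated and 13.28 and 13.31 in naive cells, a difference of 0.04 (-0.20 to 0.27). Oas1c, the member that had fallen in naive cells, read 8.01 and 8.24 in pretreated and 7.72 and 7.61 in naive cells. Both pretreated arrays were higher, as in 23.6% of all features. The Oas1c difference of 0.46 ± 0.13 (0.18 to 0.74) was not called (adjusted p = 0.137).

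The order of the group means was shared by 6 of the 8 features in set 1 and by 4 of 8 in set 2. In set 1 the order was naive 0 h, pretreated 0 h, naive 6 h and pretreated 6 h from lowest to highest for Oas1a, Oas1a/Oas1g, Oas2, Oas3, Oasl1 and Oasl2, and for Oas1b the last 2 places changed. In set 2 the same order with 3 h in place of 6 h held for Oas1a, Oas1a/Oas1g, Oas3 and Oasl2. The treated naive and treated pretreated groups, neighbours in that order, were not called different in any of these features. Pretreated 0 h and treated naive cells, also neighbours, were not tested against each other. Oas1b and Oas2 had naive 3 h highest, by 0.07 and 0.03. In set 2 Oasl1 had pretreated 0 h (mean 10.51) above naive 3 h (mean 9.85).

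The response itself, the change from 0 h, had a smaller estimate in pretreated cells for nearly every member, and no such difference passed the test. The response of pretreated cells minus that of naive cells was below 0 for all 8 features at 3 h and for 7 of 8 at 6 h, Oas1c being the other. At 3 h the sign turned for Oasl1 without naive 3 h replicate 2 (0.16) and for Oas2 without pretreated 0 h replicate 3 (0.033), so 1 array decides it for these members. None was called by limma, against 0.15% of all features at 3 h and 0.175% at 6 h, and at an unadjusted p under 0.05 there were 3 at 3 h and 5 at 6 h. The median was -0.57 at 3 h and -0.59 at 6 h over the members, and -0.0031 and -0.0052 over all features.

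Oasl2 came closest. Its response at 3 h was 1.07 ± 0.11 in naive and 0.33 ± 0.11 in pretreated cells, a difference of -0.74 ± 0.15 (adjusted p = 0.164). At 6 h the responses were 0.79 ± 0.11 and 0.26 ± 0.11, a difference of -0.53 ± 0.15 (adjusted p = 0.234). The difference of responses is by construction the difference of the treated levels minus that of the 0 h levels of the same set, and for Oasl2 at 3 h these were 0.10 and 0.84. Since all such comparisons share arrays, they are given side by side and not as separate evidence.

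Oas3 responded by 1.33 ± 0.18 and 0.64 ± 0.18 at 3 h and by 1.49 ± 0.18 and 0.78 ± 0.18 at 6 h in naive and pretreated cells, with differences of -0.70 ± 0.26 (adjusted p = 1) and -0.71 ± 0.26 (adjusted p = 0.372). For Oas1b the responses were 1.48 and 0.78 at 3 h and 0.98 and 0.30 at 6 h, each ± 0.16. The largest difference in size was that of Oasl1 at 6 h, with 1.74 ± 0.41 in naive and 0.37 ± 0.41 in pretreated cells (difference -1.37 ± 0.57, adjusted p = 0.467). Its interval, -2.62 to -0.12, is wide. Oas2 had the smallest difference of responses at both times, -0.20 ± 0.26 at 3 h and -0.18 ± 0.26 at 6 h.

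**Figure D4:**
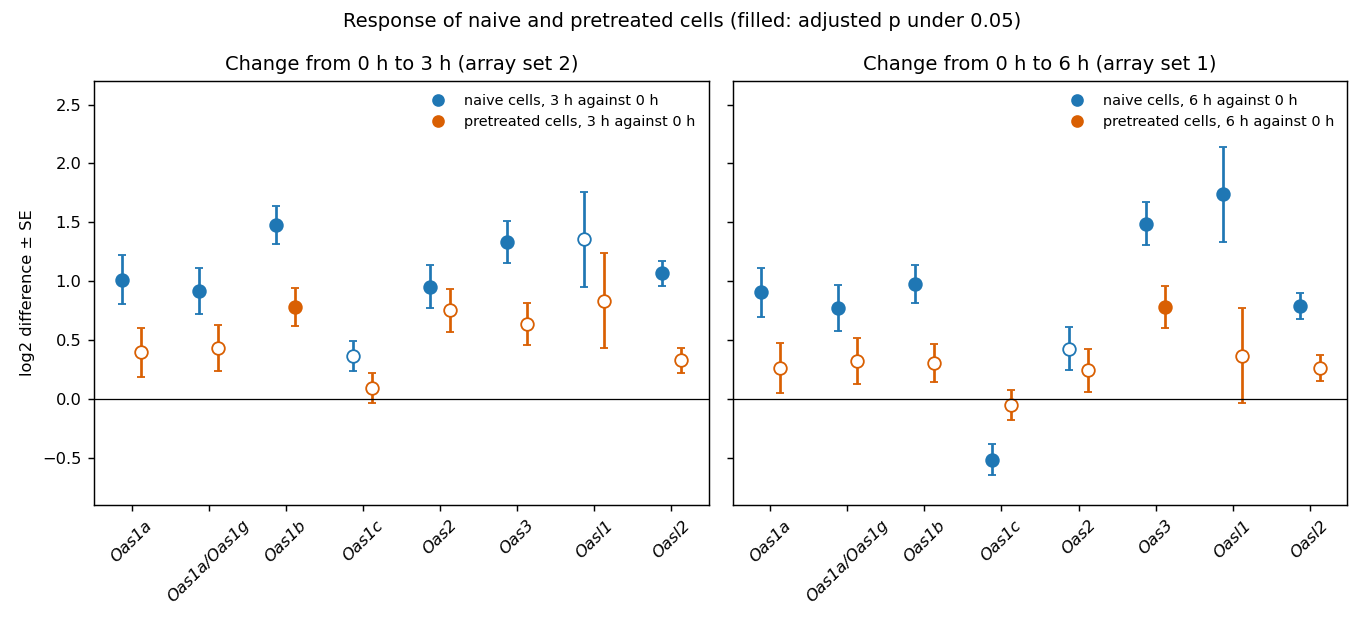
Change from 0 h (log2 difference ± SE, vertical axis) of each OAS family feature in naive and pretreated cells at 3 h (left, set 2) and 6 h (right, set 1), with filled symbols at an adjusted p under 0.05. At 3 h each pretreated point lies below the naive one, and 1 pretreated point is filled in each panel, Oas1b at 3 h and Oas3 at 6 h.

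The 3 h and 6 h responses were set against each other although they come from different array sets, so time and set cannot be told apart. In naive cells the 6 h response minus the 3 h response was below 0 for 6 of 8 features, and 1 was called lower, Oas1c (-0.88 ± 0.18, adjusted p = 0.0349), against 1% of all features. For Oas1c this is the step from a difference of 0.37 at 3 h to one of -0.51 at 6 h. The call was lost with any of 7 of the 8 arrays left out, at an adjusted p of up to 0.149. Oas1b (-0.50 ± 0.23) and Oas2 (-0.53 ± 0.26) had the next largest differences, with adjusted p-values of 0.375 and 0.436. In pretreated cells none of the 8 members and 0% of all features were called by limma, and no member had an unadjusted p under 0.05.

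Few other genes of the same pathway were called. The remaining Oas1 copies on the array, Oas1d, Oas1e, Oas1f and Oas1h, read between 4.42 and 6.11 on all arrays, below the level of 6.5 under which a feature was taken as dim. None of their 44 gene and comparison pairs was called by limma, with 2 at an unadjusted p under 0.05. Pde12, which degrades 2'-5' chains, was higher in naive cells at 6 h (0.82 ± 0.24, adjusted p = 0.0335). Abce1, a ribosome recycling factor, was also higher then (1.10 ± 0.22, adjusted p = 0.0036). Of the 6 measured genes of this list, these 2 were called in naive cells at 6 h and none in the other 10 comparisons by limma, with up to 2 at an unadjusted p under 0.05.

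Most genes of a list of other double-stranded RNA sensors and adaptors rose with the OAS genes in naive cells. At 3 h, 7 of 8 were higher: Zbp1, Tlr3, Eif2ak2 (the kinase PKR), Ifih1 (MDA5), Dhx58 (LGP2), Adar and Ddx58 (RIG-I). Zbp1 had the largest log2 difference (3.40 ± 0.21, adjusted p = 8.65e-07), and Eif2ak2, which shuts down translation by another route, rose by 1.43 ± 0.14 (adjusted p = 5e-05). Mavs, the adaptor of RIG-I and MDA5, fell at 3 h (-0.59 ± 0.15, adjusted p = 0.0391) and at 6 h (-1.20 ± 0.15, adjusted p = 0.000146), when 6 of the 8 were higher. In pretreated cells Mavs was not called at 3 h (-0.57 ± 0.15, adjusted p = 0.0724) or 6 h (-0.02 ± 0.15, adjusted p = 0.991) against 0 h, and at 6 h it was the only gene of the list called between pretreated and naive cells (0.84 ± 0.15 higher, adjusted p = 0.0316). The share of all features called lower at 3 h in naive cells was 1.89%. The list's median was 1.34 at 3 h and 0.97 at 6 h.

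In pretreated cells at 0 h, 3 of these 8 genes were higher than in naive cells, Dhx58 (0.76 ± 0.11), Ifih1 (0.62 ± 0.10) and Zbp1 (2.50 ± 0.15). After the second treatment 4 were higher at 3 h than at 0 h (Adar, Eif2ak2, Ifih1 and Tlr3) and 2 at 6 h (Dhx58 and Zbp1). The response of Zbp1 was lower in pretreated than in naive cells by the test of the difference, at 3 h (-2.61 ± 0.29, adjusted p = 0.00252) and at 6 h (-1.74 ± 0.29, adjusted p = 0.0439). It was the only gene of this list so called. Sting1, the adaptor of the DNA sensor cGAS, was higher in naive cells at 3 h (1.42 ± 0.12) and 6 h (1.23 ± 0.12) and in pretreated cells at 0 h (0.42 ± 0.08). It was higher again after the second treatment, at 3 h (0.82 ± 0.12) and 6 h (0.83 ± 0.12) against pretreated 0 h. Cgas was not called in any comparison. In naive cells at 6 h, however, both genes had an unadjusted p under 0.05 by limma, with a median log2 difference of 1.07 over the 2.

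Of 12 measured genes of interferon signalling, 5 were higher in naive cells at 3 h, namely Irf1 (2.93 ± 0.15), Irf7 (1.82 ± 0.20), Irf8 (1.56 ± 0.15), Stat2 (1.30 ± 0.11) and Jak2 (1.07 ± 0.18). The receptor genes Ifngr1 (-0.93 ± 0.14) and Ifngr2 (-0.58 ± 0.14) were lower. The same 5 genes were higher at 6 h, and none was lower. Irf7 (1.54 ± 0.14), Irf1 (1.11 ± 0.10) and Stat2 (0.90 ± 0.08) were also higher in pretreated cells at 0 h. After the second treatment Irf1 and Irf8 were higher and Ifngr1 lower at 3 h, and Irf1, Irf8 and Stat2 were higher and Ifngr1 lower at 6 h. Of all features 0.889% and 2.58% were called lower in those comparisons. The 3 h response of Irf1 was lower in pretreated than in naive cells by the test of the difference (-1.65 ± 0.21, adjusted p = 0.00592), and it was the only gene of this list called for a difference of responses.

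The type I interferon genes with a feature naming them alone showed no called change. Ifna1 and Ifna15 stood only on features naming several genes, and such shared features were left out of this list. None of 132 pairs of 12 measured genes and 11 comparisons was called by limma, with 6 at an unadjusted p under 0.05, and 9 of the 12 features were dim. Ifnb1 read between 4.70 and 6.14 on all arrays. A dim feature can hide a change, so these values do not measure whether interferon-beta was made.

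Across the 16 arrays, each centred on the mean of its set for the feature, 7 of the 8 members ran together. The 21 pairs without Oas1c had Pearson correlations of 0.64 to 0.99 (median 0.90), and the 7 pairs with Oas1c 0.056 to 0.24. The arrays share groups and sets, and both features naming Oas1a may share RNA, so these correlations are descriptions. The features most like each member by the same measure were chosen from all features naming 1 gene. For Oasl2 and Oas3 it was Stat2 (r = 0.99 and 0.98), for Oas1b Adar (0.98), and for both Oas1a features Usp18 (0.98 for Oas1a/Oas1g and 0.97 for Oas1a), which removes ISG15 from proteins and restrains type I interferon signalling. Next came Gm4951 and Zbp1 for Oasl2, Atp13a1 and H2-T24 for Oas3, Daxx and Rnf31 for Oas1b, Xaf1 and Znfx1 for Oas1a/Oas1g, and 4930599N23Rik and Tor3a for Oas1a. Oas2 was most like Apobec3 (0.93), then Slfn5 and Daxx, and Oasl1 most like Ifi206 (0.94), then Ifi213 and Bst2. Oas1c was nearest to Bcs1l, at 0.85, a mitochondrial chaperone for respiratory complex III, then to Mms19 and Fbxl6.

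All members lie on chromosome 5, in an Oasl pair and in a longer Oas row. By the RefSeq table the row runs Oas2, Oas3, Oas1e, Oas1c, Oas1b, Oas1f, Oas1h, Oas1g, Oas1a and Oas1d, so Oas1c, the member that fell at 6 h, lies next to Oas1b, which rose. The dim Oas1e lies between Oas3 and Oas1c, and the dim Oas1f and Oas1h lie between Oas1b and Oas1g. Of the 20 other genes within 200 kb that have a feature, none was higher in naive cells at 3 h or 6 h. At 3 h 1 was lower (Git2, -0.56 ± 0.15), and at 6 h 4 were (Ankrd13a, Git2, Acads and Tpcn1), of which Tpcn1, an endolysosomal ion channel gene, fell most (-2.16 ± 0.31, adjusted p = 0.000433). Of all features 3.44% were called higher at 3 h and 7.4% at 6 h, and 1.89% and 9.91% lower. At such shares few of 20 genes would be called higher, so the lack of a higher call does not set the neighbours apart. None of the 20 was called in the other 9 comparisons by limma, with up to 4 at an unadjusted p under 0.05.

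The arrays carried macrophage RNA by their markers. The 9 measured macrophage markers had mean log2 intensities of 11.40 to 13.82; 8 of their 63 pairs with a comparison of levels were called, so these markers differed between some groups, and the part of this in the OAS values was not tested. The 29 measured markers of 8 other blood and stromal cell types had means of 4.45 to 7.87, of which 17 were dim. None of the 203 pairs of these 29 with a comparison of levels was called by limma, with 3 at an unadjusted p under 0.05. In these bulk samples fewer cells of a type and less RNA per cell cannot be told apart. Array medians were 7.15 to 7.23 in set 1 and 6.886 to 6.997 in set 2. Within a group and set, the 2 arrays correlated at 0.9901 to 0.9954 over all features, and none were identical.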

How the data were processed

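Gene expression was measured on 16 Affymetrix mouse gene arrays. The values were used as deposited: log2 intensities made by the authors, per the labels and the value table. The background correction, normalization and summary of the probe signals are not given by the sources used here. Array medians and minima differ between the 2 sets (minima 2.842 to 2.939 and 2.127 to 2.218), so groups were compared within a set only. For arrays their number, 2 per group and set, limits the precision.

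Gene names are those of GEO's platform annotation and can be outdated: of 35557 features 21789 name 1 gene, 1621 several and 12147 none. The 23410 features with a symbol were fitted with limma 3.58.1 in R 4.3.3, with 1 mean for each of 8 cells of group and set (8 residual, 4.136 prior degrees of freedom). Contrasts were taken within sets, or averaged over both at 0 h. Benjamini-Hochberg adjustment ran over the 23410 features, and called means an adjusted p under 0.05. Folds are 2 to the power of the absolute log2 difference. The fit was tested on simulated data.

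The rule for named genes took all members, the measured genes of 5 lists (pathway genes, RNA sensors, cGAS and Sting1, interferon signalling, type I interferons), genes within 200 kb of a member, and the 3 features most like each member; of these the text names the ones called or needed to read a count. Members, lists and tests were chosen with earlier results of these data known. Sequences are from RefSeq, build GRCm38.p6. Figures were drawn with matplotlib 3.10.9 and tables made with pandas 2.3.3 in Python 3.11.15.

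Alternatives were an additive or no array-set term, each set alone, the half-set as a block, all 35557 features, 1 feature per gene, features with a mean log2 of at least 6.5, repeated quantile normalization, median centring, eBayes with trend and robust, array weights, a 2-fold limit, and each array left out, taking the spread of a lone array from the rest of the fit.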

Additional observations from a re-analysis of the deposited data

Results flagged for a closer look

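In 2 cases 1 of the 4 arrays of a group stood apart from the others by Dixon's test. The Oas1a feature read 9.69 on naive 0 h replicate 3, while the other 3 naive 0 h arrays read 10.20 to 10.27. The same feature read 11.21 on pretreated 0 h replicate 1, while the other 3 read 10.57 to 10.65. Both groups hold arrays of both sets, and 16 groups of 4 arrays were tested. Chance gives such a value in about 1 in 20 groups.

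For Oas1c the naive response at 6 h minus that at 3 h was -0.88 (log2, adjusted p = 0.0349), by a test of the difference itself. The 2 responses come from different array sets.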

How the results depend on the processing

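Over the alternatives no called member changed direction. Of 1560 values of single members under an alternative, 64 lost and 25 gained a call. Another 48 uncalled ones moved by 1 SE or more, and the other 1423 did none of these. Changing the set of features, trend with robust eBayes and the 2-fold limit leave the log2 difference as it is. So do array weights and the half-set block here, so these settings could not turn a direction. With each array left out in turn, members called ranged from 3 to 7 for naive cells at 3 h, from 4 to 6 at 6 h, from 0 to 1 for pretreated cells at 3 h and at 6 h, from 3 to 6 at 0 h, and from 0 to 1 for the naive 6 h response minus the 3 h response. A 2-fold limit left 4 of 6 at 3 h and 2 of 7 at 6 h in naive cells, 0 in pretreated cells at 3 h and 6 h, 1 at 0 h and 0 for 6 h minus 3 h. At 0 h an additive array-set term and trend with robust eBayes called 6 members each, with Oas1a and Oas1a/Oas1g added. The level filter called 5 there, with Oas1a added. No array-set term and array weights called 3 each at 0 h, with Oas1b lost. Each array set alone called 1 of the 4 members at 0 h, Oas3 in set 1 (fewer arrays) and Oasl2 in set 2, and set 2 alone called 0 at 3 h in pretreated cells. For that last comparison an additive array-set term called 3, and 1 feature per gene, the level filter, median centring and trend with robust eBayes called 2 each, the added members being Oas2 and, with the additive term, Oas3; array weights called 0. With trend and robust eBayes 1 response difference was called at 3 h (Oasl2, adjusted p = 0.0359), and with the additive term 1 at 6 h (Oasl2, adjusted p = 0.039). No array-set term, all features and median centring each called 0 for 6 h minus 3 h. The cause was not tested for any of these.

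The arrays carry no replicate number that pairs them by the labels, but positions 1 to 4 and 5 to 8 in each set's title numbering form half-sets. Deviations from the group means correlated between arrays of a half-set at 0.067 to 0.675 over 12 pairs. With the half-set as a block, 7 members were called in naive cells at 3 h (Oasl1 added, adjusted p = 0.0116), 2 in pretreated cells at 3 h (Oas2 added, adjusted p = 0.0423) and 6 at 0 h (Oas1a, adjusted p = 0.00639, and Oas1a/Oas1g, adjusted p = 0.0078, added), and no member was lost.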
